A study of Mus musculus with 16 samples.

Results

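The expression of 10 cardiac transcription factor genes was followed in the left ventricle of mice that lack the nuclear receptor PPARalpha and of wild-type mice. The members were Hopx, Gata4, Gata6, Mef2a, Mef2c, Mef2d, Nkx2-5, Tbx20, Hand2 and Srf. A probe set was taken where the array annotation gave it exactly 1 of these symbols. All 10 genes were found, with 30 of the 34945 probe sets that carried 1 gene, which covered 18193 genes in all. All 10 lay above the filter on dim genes, which left 10916 genes to test. The members had between 1 (Nkx2-5) and 6 (Mef2a) probe sets each.

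The 4 groups were PPARalpha-/- mice after transverse aortic constriction (KO TAC), PPARalpha-/- mice after a sham operation (KO sham), wild-type mice after constriction (WT TAC) and wild-type mice after a sham operation (WT sham). Constriction narrows the aorta and loads the left ventricle with pressure, and tissue was taken 28 days after surgery. Total RNA from each sample was hybridised to 1 Affymetrix array, with 4 arrays per group and 16 in all. The design asks how PPARalpha bears on cardiac expression at baseline and under lasting load. The sources used here do not give strain, sex or age, so the knockout and any other difference between the 2 mouse lines cannot be told apart. Nor do the labels state that each array had its own animal, and a p-value here reflects the scatter among arrays, which may be technical.

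These factors form the core network that keeps heart muscle genes switched on. GATA4, GATA6, NKX2-5, TBX20 and HAND2 bind DNA in the nuclei of heart cells and act together on shared promoters, while SRF and the MEF2 proteins are MADS-box factors whose activity follows calcium, stretch and growth signals. Much of their response to load is known to run through phosphorylation and changing partners, which an mRNA measurement does not see. HOPX has a homeodomain but does not bind DNA, and in mouse heart it restrains SRF by recruiting histone deacetylases.

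All values are the deposited linear signal, which had been scaled so that the mean between the 2nd and 98th percentiles of each array was 500. Median signals of the arrays lay between 108 and 162.6, and arrays correlated with their own group, on average, at 0.877 to 0.926. WT TAC array 3 had both the highest median signal and the lowest such correlation. It had the highest hybridisation spike-in signal and KO TAC arrays 2 and 3 the lowest, so results are given without these 3 arrays too. Precision is limited by the number of arrays. Ppara, the targeted gene, had signals of 388.1 to 524.7 in KO TAC and 524.2 to 727.1 in KO sham, against 1385 to 2171 in WT TAC and 1546 to 2308 in WT sham, so its level matched the genotype labels on every array. Whether its probes lie in the deleted part is not known here. Cardiomyocyte markers had high signals on all arrays (for Tnnt2, 67867 to 113087), whereas the lung marker Sftpc did not exceed 246.3. In bulk tissue, fewer cells of a type and less RNA per cell cannot be told apart.

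Hopx was the single factor of the 10 that passed the test in any comparison. Its mRNA was 1.48-fold lower in KO TAC than in KO sham and 1.42-fold lower in KO TAC than in WT TAC. By its brightest probe set, 1428662_a_at, the signal was 25413, 25394, 25649.6 and 27553.5 on the KO TAC arrays. It was 34973, 40410.4, 38879 and 39460.2 in KO sham, 33859, 35119, 38730.6 and 40082 in WT TAC, and 30491, 32180.3, 33052 and 35163 in WT sham. All 4 KO TAC arrays lay below the other 12, and the ranges of those other groups overlapped one another. The order of the group means, from low to high, was KO TAC at 26002.5 ± 1041 (SD, n = 4), WT sham at 32722 ± 1944, WT TAC at 36948 ± 2938 and KO sham at 38431 ± 2390 (SD, n = 4 each). WT TAC and KO sham overlapped across most of their range.

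The second Hopx probe set, 1451776_s_at, showed the same low group. It gave 5815, 5282, 5557 and 6004 in KO TAC, against 8095, 9465, 9361 and 8633 in KO sham. It gave 7492, 7928, 6283 and 8009 in WT TAC and 6628, 7518, 8098 and 7784 in WT sham. Here too every KO TAC array lay below the other 12, while WT TAC and WT sham were interleaved. The suffix of this probe set marks probes shared among transcripts.

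**Figure D1:**
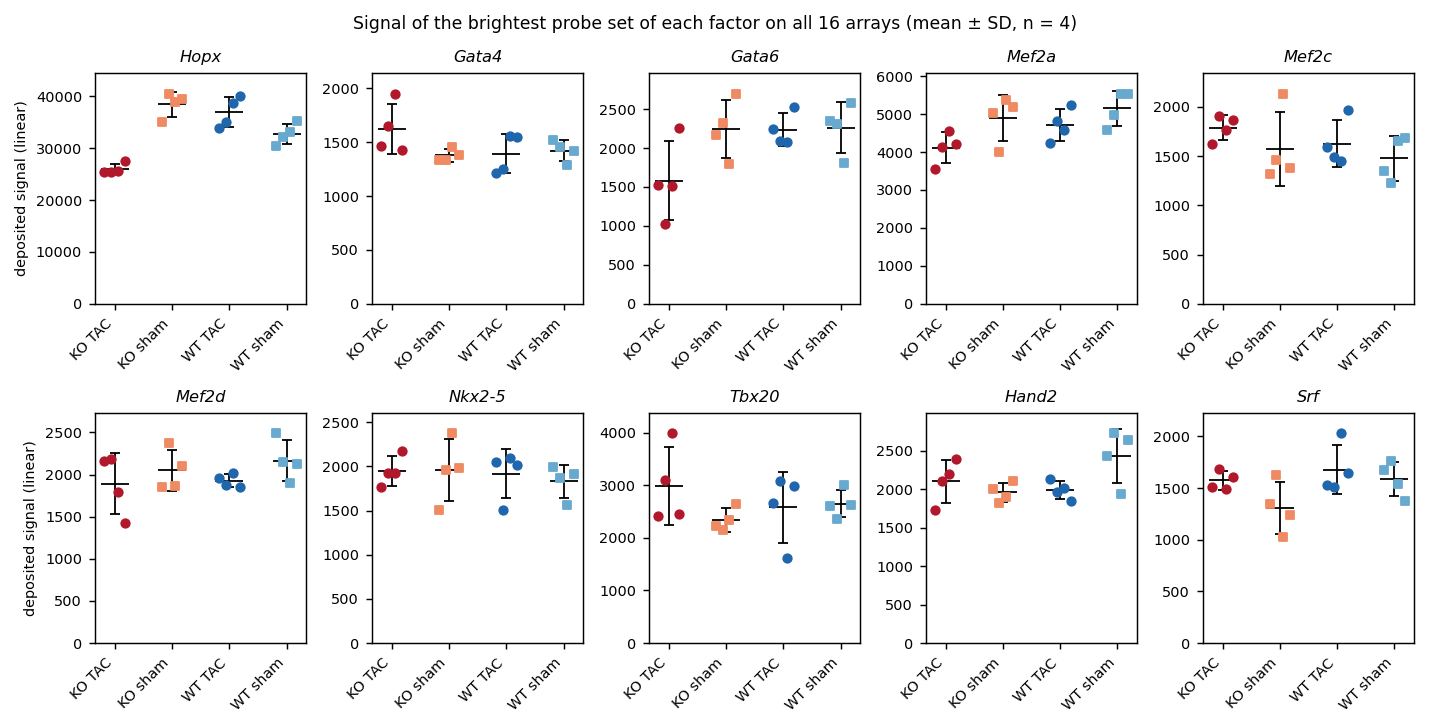
Deposited linear signal (y axis, from 0, a separate scale per gene) of the brightest probe set of each of the 10 factors in KO TAC, KO sham, WT TAC and WT sham; points are arrays, horizontal marks the group mean and bars the SD (n = 4). For Hopx the 4 KO TAC arrays lie at 25394 to 27553.5, below all other arrays, while for the other 9 genes the KO TAC arrays overlap those of each other group compared with them.

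Limma was fitted to the log2 signal of all 16 arrays, with p-values adjusted by Benjamini-Hochberg over the 10916 genes and a gene called where the adjusted p was under 0.05. Values below are log2 fold changes ± the standard error of that fit. Hopx gave -0.56 ± 0.088 for KO TAC against KO sham (95% confidence interval -0.75 to -0.37, adjusted p = 0.0032). Of the 10 factors, 1 was called in this comparison, where 2.57% of all genes were called and 0.98% were called lower. For KO TAC against WT TAC, Hopx gave -0.50 ± 0.088 (-0.69 to -0.32, adjusted p = 0.00731). There too 1 of 10 was called, against 2.46% of all genes called and 1.14% called lower. The 2 comparisons share the KO TAC arrays.

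At baseline and in wild-type mice Hopx did not pass. KO sham against WT sham gave 0.23 ± 0.088 (0.04 to 0.42, adjusted p = 0.416), and WT TAC against WT sham gave 0.17 ± 0.088 (-0.01 to 0.36, adjusted p = 0.671). The TAC response of KO minus that of WT was -0.74 ± 0.12, with an adjusted p of 0.125, so the difference between the genotypes' responses did not pass over all genes. With limma's trend and robust options, the difference passed (adjusted p = 0.00644), and in the other settings it did not (adjusted p up to 0.599, with the spike-in covariate). Its value was -0.45 with quantile normalization, -0.49 with arrays centred on their medians and -0.48 relative to the bright genes described next. The Hopx calls held without each of the 16 arrays in turn. The call against KO sham was lost with arrays centred on their medians (-0.44, adjusted p = 0.110) and without the 3 arrays of outlying spike-ins (-0.54, adjusted p = 0.0693), and the call against WT TAC was lost in 6 of 13 settings (adjusted p up to 0.177), with a negative sign in all of them.

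Several other quantities moved with Hopx. It is among the 277 tested genes with a mean log2 signal of at least 14, and the median of those bright genes was also negative, at -0.17 for KO TAC against KO sham and -0.21 for KO TAC against WT TAC. Of the 277, 6 were at or below the Hopx value in the first comparison and 11 in the second, with Hopx itself counted in both. Relative to the median of the bright genes on each array, an alternative chosen after seeing the data, Hopx gave -0.41 ± 0.097 against KO sham (adjusted p = 0.0306) and -0.32 ± 0.097 against WT TAC (adjusted p = 0.0662). The mean log2 signal of the hybridisation spike-ins, which are added after RNA extraction, was 12.28 to 12.95 in KO TAC, 12.68 to 13.16 in KO sham, 12.91 to 13.36 in WT TAC and 12.61 to 12.85 in WT sham. With it as a covariate, Hopx gave -0.54 ± 0.10 against KO sham (adjusted p = 0.0235) and -0.47 ± 0.12 against WT TAC (adjusted p = 0.121).

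**Figure D2:**
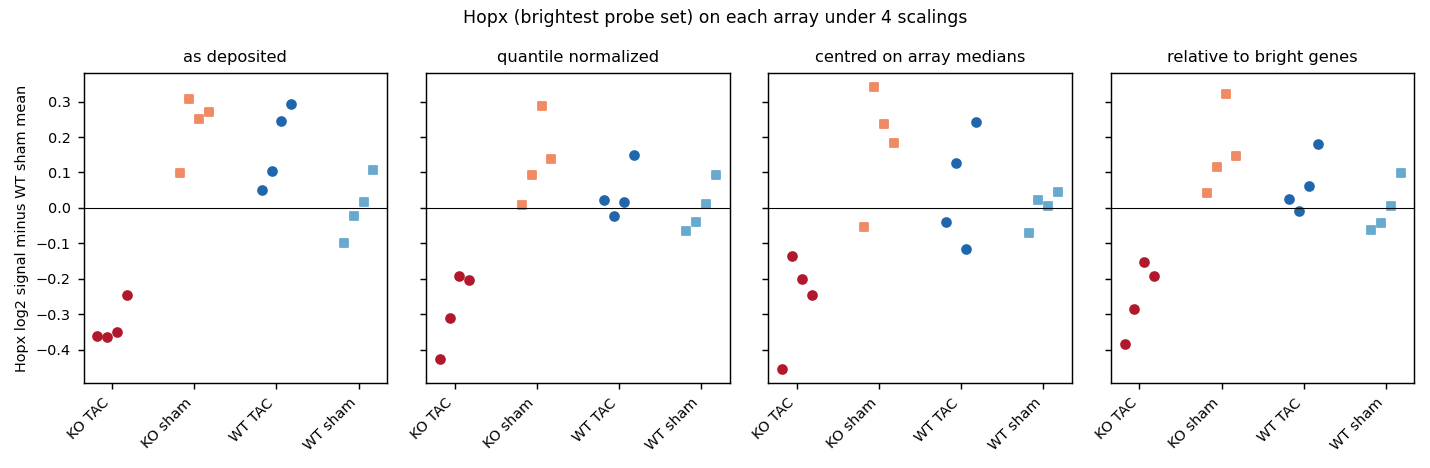
Log2 signal of the brightest Hopx probe set on each array minus the WT sham mean (y axis) in KO TAC, KO sham, WT TAC and WT sham, as deposited and after 3 other scalings; points are arrays. Under each of the 4 scalings the 4 KO TAC arrays lie below the other 12, with the narrowest gap after centring on array medians (highest KO TAC array at 14.89 and lowest other array at 14.91 before the WT sham mean was subtracted).

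Cell type markers were read beside Hopx. The summed signal of the 10 cardiomyocyte markers was 504764 to 636450 in KO TAC, 594356 to 701284 in KO sham, 653456 to 891856 in WT TAC and 532322 to 636681 in WT sham. All 10 were tested and limma called 0 in each comparison. At an unadjusted p under 0.05 there were 3 for KO TAC against KO sham, with a median of -0.22, and 8 for KO TAC against WT TAC, with a median of -0.37. For the difference between the TAC responses there were 7, with a median of -0.50. Fibroblast markers ran the other way. Their summed signal, over 9 genes, was 67773 to 75829.7 in KO TAC, 45789 to 54052.5 in KO sham, 48032 to 63004.5 in WT TAC and 47022 to 51238 in WT sham, and 4 of 9 were called higher in KO TAC against each of KO sham and WT TAC. Macrophage markers summed to 29328 to 36809 in KO TAC, 26003 to 29590 in KO sham, 21069 to 28038 in WT TAC and 22666 to 24734 in WT sham, and 3 of 9 were called higher in KO TAC against WT TAC and 0 against KO sham. Of the skeletal muscle list 2 of 7 were tested, since Myh1, Myh2, Myh4, Tnnt3 and Actn3 fell under the filter on dim genes. Myot was called higher in KO TAC against KO sham (0.64, adjusted p = 0.047) and against WT TAC (1.32, adjusted p = 0.00032). It was also called higher in KO sham against WT sham (0.90, adjusted p = 0.0125). Ckm leaned the other way in KO TAC, against KO sham (-0.15, adjusted p = 0.474) and against WT TAC (-0.22, adjusted p = 0.256). Alas2, the 1 marker tested of the 3 on the erythroid list, was called higher in KO TAC against WT TAC (1.07, adjusted p = 0.0189). Nppa was called among the atrial markers in both comparisons, and 0 endothelial, smooth muscle, lung or adipocyte markers were called in either, with 0 to 2 of each list at an unadjusted p under 0.05. No cardiomyocyte, fibroblast or macrophage marker was at the floor in the group medians, and the part of any of these lists in the Hopx result and in the target genes described further on was not tested.

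Promoter sequences are shown for Hopx, because its level differed, and for Srf and Mef2a, because each holds a site that the protein of its own family is known to bind. They come from RefSeq on GRCm38.p6, run from 250 bases before the annotated start to 50 after it, and matched 8 of the 10 members with 11 promoters. Capitals mark GATA (bound by GATA factors), AAGTG (the NKX2-5 core), AGGTG (a T-box core), the CArG box (bound by SRF) and the MEF2 site, found on either strand. The first Hopx promoter is at chr5:77115074-77115373, the second at chr5:77095218-77095517, the Srf promoter at chr17:46556113-46556412 and the Mef2a promoter at chr7:67372809-67373108, all on the minus strand.
Hopx, first start: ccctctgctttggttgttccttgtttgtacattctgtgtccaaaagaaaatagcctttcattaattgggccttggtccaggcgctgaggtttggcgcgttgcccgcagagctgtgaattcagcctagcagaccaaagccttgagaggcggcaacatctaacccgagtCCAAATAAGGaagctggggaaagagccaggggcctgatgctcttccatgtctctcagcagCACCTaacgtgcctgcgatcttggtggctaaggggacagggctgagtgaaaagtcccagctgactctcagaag
Hopx, second start: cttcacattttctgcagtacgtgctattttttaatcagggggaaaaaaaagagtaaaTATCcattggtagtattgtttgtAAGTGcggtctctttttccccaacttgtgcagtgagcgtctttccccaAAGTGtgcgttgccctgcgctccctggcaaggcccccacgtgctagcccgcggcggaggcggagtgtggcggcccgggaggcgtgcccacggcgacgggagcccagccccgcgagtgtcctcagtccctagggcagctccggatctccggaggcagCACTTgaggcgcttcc
Srf: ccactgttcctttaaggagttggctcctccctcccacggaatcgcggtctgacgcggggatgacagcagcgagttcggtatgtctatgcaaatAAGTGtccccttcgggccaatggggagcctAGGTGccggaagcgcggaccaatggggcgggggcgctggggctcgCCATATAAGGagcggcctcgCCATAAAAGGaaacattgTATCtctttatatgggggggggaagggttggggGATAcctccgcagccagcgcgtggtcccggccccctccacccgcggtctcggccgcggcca
Mef2a: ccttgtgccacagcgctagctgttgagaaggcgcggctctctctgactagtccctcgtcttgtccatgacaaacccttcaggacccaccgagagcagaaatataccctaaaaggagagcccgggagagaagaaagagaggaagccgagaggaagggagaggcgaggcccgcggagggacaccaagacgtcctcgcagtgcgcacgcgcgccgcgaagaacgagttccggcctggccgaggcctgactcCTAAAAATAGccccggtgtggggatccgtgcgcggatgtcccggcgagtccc

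The first Hopx promoter held a CArG box at position -83 from the start and AGGTG at -23. The second held GATA at -193 and AAGTG at -170, -122 and 35, and no CArG box in these letters. The Srf promoter held 2 CArG boxes at -82 and -62, beside GATA at -44 and -11, AAGTG at -157 and AGGTG at -127. The Mef2a promoter held a MEF2 site at -2. Srf and Mef2a were shown because they hold these sites, so finding them there is no result. Each promoter matched to Mef2c or Mef2d held 0 MEF2 sites in these letters. A CArG box was found in 1.63% of 32841 promoters of the same length, and a MEF2 site in 3.19%. The short motifs are common: GATA was in 57.9%, AAGTG in 46.4% and AGGTG in 51.9%. CANNTG, the E-box that HAND2 and its partners bind, was in 72.3% and is not capitalised. It overlaps AAGTG at position 35 of the second Hopx promoter. The arrays do not tell which Hopx start was used, and a match is a description of letters.

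The GATA factors are zinc finger proteins that switch on natriuretic peptide and contractile genes. Gata6 had the widest differences among the factors that did not pass. Its brightest probe set, 1425464_at, gave 1527, 1028.5, 1508 and 2259 in KO TAC, against 2166, 2320.3, 1790.3 and 2691 in KO sham. WT TAC gave 2240.1, 2093, 2079 and 2532.5, and WT sham gave 2347, 2308, 1813.5 and 2579.9. The KO TAC arrays 1, 2 and 3 lay below all 12 others, and KO TAC array 4 lay among them. The fit gave -0.54 ± 0.20 for KO TAC against KO sham (adjusted p = 0.175) and -0.55 ± 0.20 for KO TAC against WT TAC (adjusted p = 0.173). Without KO TAC replicate 4 the second value was -0.74 and passed (adjusted p = 0.0458). The dimmer probe set 1443081_at gave 288.4, 152.1, 177.4 and 304.9 in KO TAC, against 385.8, 321.8, 421.2 and 506.8 in KO sham. Those groups did not overlap, at -0.87 ± 0.24 (adjusted p = 0.215 over 45037 probe sets). The third Gata6 probe set, 1425463_at, gave -0.20 ± 0.23 in the same comparison, and its KO TAC arrays lay within the KO sham range.

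Gata4, the partner of GATA6 in the stress response of heart muscle, leaned the other way without passing. Its brightest probe set, 1418863_at, gave 1464, 1651.5, 1945 and 1430.8 in KO TAC, against 1335, 1335.5, 1456 and 1380.2 in KO sham and 1218, 1253, 1559 and 1547 in WT TAC. The highest KO TAC arrays stood above the others and the lowest overlapped them. The fit gave 0.23 ± 0.12 against KO sham (adjusted p = 0.367) and 0.22 ± 0.12 against WT TAC (adjusted p = 0.378). The dimmer probe set 1418864_at gave 325.3, 488, 459.7 and 484.1 in KO TAC and 290.5, 168.4, 304.5 and 285.3 in WT TAC. These groups did not overlap, at 0.76 ± 0.24 (adjusted p = 0.285 over all probe sets).

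The MEF2 factors bind AT-rich sites of muscle genes and are held back by class II histone deacetylases. None of the 3 MEF2 genes passed in any comparison. For Mef2a the brightest probe set, 1427185_at, gave 3558, 4126, 4550.7 and 4219.6 in KO TAC, against 5027, 4006.5, 5375 and 5186 in KO sham. WT TAC gave 4242, 4811, 4571 and 5245, and WT sham gave 4587, 4970.1, 5524 and 5516. The KO TAC arrays held the lowest value of the 16 but overlapped each other group, at -0.25 ± 0.12 against KO sham (adjusted p = 0.318) and -0.20 ± 0.12 against WT TAC (adjusted p = 0.429). A dim one of the 6 Mef2a probe sets, 1442623_at, gave 237.5, 135.6, 133.3 and 133.1 in KO TAC, against 279.8, 317.5, 286 and 370.4 in KO sham. Its groups did not overlap, at -1.01 ± 0.26 (adjusted p = 0.192 over all probe sets), whereas the other 5 lay between -0.25 and 0.02 in that comparison. What this probe set reads along the transcript was not tested. For the brighter Mef2a probe set 1427186_a_at, WT TAC did not overlap WT sham (-0.33 ± 0.13, adjusted p = 0.788 over all probe sets). KO sham did not overlap WT sham on it either (-0.20 ± 0.13, adjusted p = 0.940).

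Mef2c is the MEF2 gene that heart formation depends on in mice. Its brightest probe set, 1424852_at, gave 1619, 1904, 1762 and 1873 in KO TAC, against 1319, 1458, 2129.9 and 1379.8 in KO sham, at 0.21 ± 0.16 (adjusted p = 0.570). KO sham array 3 exceeded every KO TAC array, and the other 3 KO sham arrays lay below all of them. Probe set 1451507_at gave 743.2, 684.9, 1114 and 677.1 in KO TAC and 593.7, 522.5, 364.9 and 643 in WT TAC. Those groups did not overlap, at 0.60 ± 0.21 (adjusted p = 0.353 over all probe sets), while the other 4 Mef2c probe sets gave 0.01 to 0.18. Mef2d, which carries much of the adult MEF2 response to load in mice, gave -0.13 ± 0.14 for KO TAC against KO sham, with signals of 1425 to 2185 in KO TAC and 1849 to 2381 in KO sham. Of the 4 KO sham arrays, 3 lay within the KO TAC range.

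**Figure D3:**
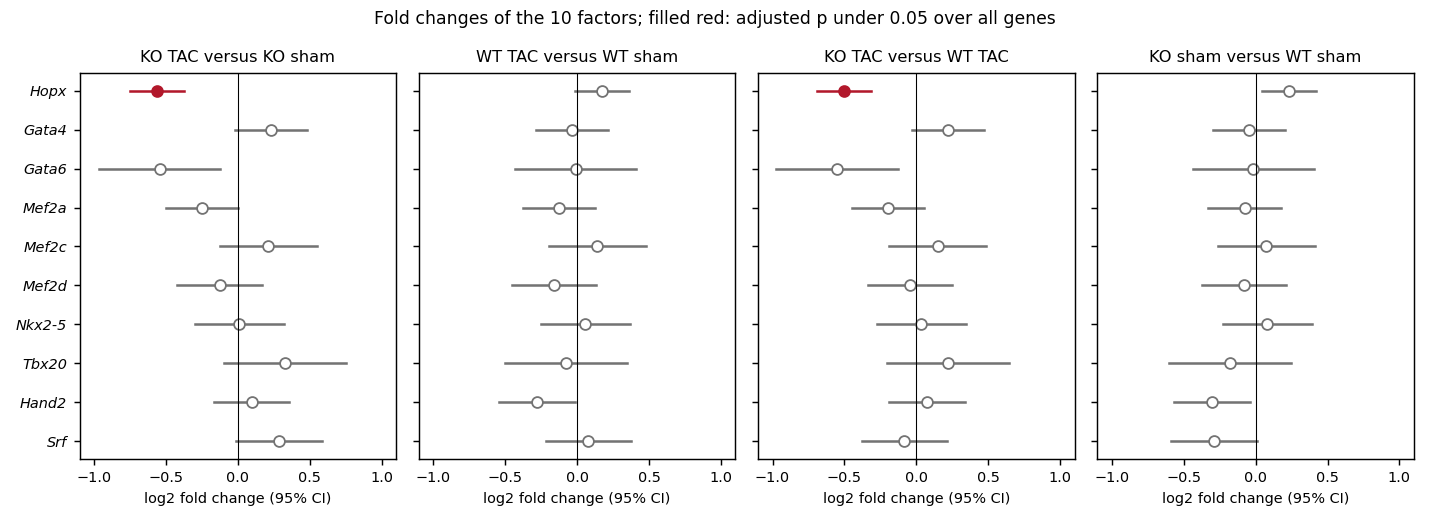
Log2 fold changes (x axis) of the 10 factors in 4 comparisons, KO TAC versus KO sham, WT TAC versus WT sham, KO TAC versus WT TAC and KO sham versus WT sham; points are limma estimates from the brightest probe set, bars 95% confidence intervals, and filled red points have an adjusted p under 0.05. Hopx is filled at -0.56 and -0.50 in the KO TAC comparisons, and no point is filled in the others.

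SRF binds the CArG box and drives both early growth genes and the contractile apparatus. Srf gave 1514, 1688, 1492 and 1608 in KO TAC, against 1350, 1629, 1026 and 1238 in KO sham, by probe set 1418255_s_at. WT TAC gave 1529, 1510, 2029 and 1650.5, and WT sham gave 1673, 1761, 1539 and 1375.5. KO sham was the lowest group and overlapped each other one, at 0.28 ± 0.14 for KO TAC against KO sham (adjusted p = 0.340) and -0.29 ± 0.14 for KO sham against WT sham (adjusted p = 0.595). The second Srf probe set, 1418256_at, gave 0.22 ± 0.16 for KO TAC against KO sham.

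Nkx2-5, the homeodomain partner of GATA4, was the flattest of the factors. Its 1 probe set gave 1771 to 2176 in KO TAC, 1510.4 to 2373 in KO sham, 1505 to 2094 in WT TAC and 1564 to 1991 in WT sham. The 4 comparisons between groups lay between 0.01 and 0.08, and the interval for KO TAC against KO sham was -0.30 to 0.32. Tbx20, a T-box factor that adult heart muscle needs to keep its contractile genes on, gave 2412, 3091, 3982 and 2452 in KO TAC, against 2222, 2147, 2329.8 and 2651 in KO sham, by its brightest probe set, 1453351_at. The lowest KO TAC arrays lay within the KO sham range, at 0.33 ± 0.20 (adjusted p = 0.461). Its dimmest probe set, 1422219_a_at, gave 76 to 172.2 in KO TAC and 14.7 to 57.9 in KO sham. Those groups did not overlap, at 1.70 ± 0.73 (adjusted p = 0.520 over all probe sets), while 1425158_at gave 0.22 ± 0.27.

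Hand2, a basic helix-loop-helix factor best known from the right ventricle and the outflow tract of the embryo, had its highest group mean in WT sham. By its brightest probe set, 1436041_at, the signal was 1724, 2111, 2193 and 2391 in KO TAC and 2004, 1826, 1899.5 and 2105 in KO sham. It was 2128, 1958, 2013 and 1849 in WT TAC and 2426, 2723, 1937 and 2643 in WT sham. WT sham arrays 1, 2 and 4 lay above all KO TAC, KO sham and WT TAC arrays, and WT sham array 3 lay among them. KO sham against WT sham gave -0.30 ± 0.12 (-0.56 to -0.04, adjusted p = 0.474) and WT TAC against WT sham gave -0.28 ± 0.12 (-0.54 to -0.02, adjusted p = 0.636). Neither passed. The dimmer Hand2 probe sets had the opposite sign in these comparisons. Probe set 1422221_at gave 0.04 ± 0.18 and 0.15 ± 0.18, and 1443854_at gave 0.91 ± 0.69 and 0.48 ± 0.69.

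Counted over the factors, limma called 0 of 10 in KO sham against WT sham, where 0.742% of all genes were called, and 2 of 10 had an unadjusted p under 0.05 (Hopx and Hand2), against 8.52% of all genes. It called 0 of 10 in WT TAC against WT sham, where 0% of all genes were called. There 1 of 10 had an unadjusted p under 0.05 (Hand2), against 7.62% of all genes. For the difference between the TAC responses 0 of 10 and 0% of all genes were called, with 2 of 10 (Hopx and Hand2) and 10.3% of all genes at an unadjusted p under 0.05. The Hand2 counts rest on its brightest probe set, and its other probe sets had the opposite sign in each comparison where it is counted. In both KO TAC comparisons the 2 factors with an unadjusted p under 0.05 were Hopx and Gata6, against 16% of all genes for KO TAC against KO sham and 16.4% for KO TAC against WT TAC. Apart from Hopx, the 9 factors lay between -0.54 and 0.33 for KO TAC against KO sham and between -0.28 and 0.14 for WT TAC against WT sham. Their 95% intervals together reached from -0.97 to 0.75 and from -0.54 to 0.48.

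Groups without overlap were counted too. In KO TAC against KO sham 1 of 10 factors (Hopx) separated the arrays, where 10.8% of all genes did. The same held for KO TAC against WT TAC, with 1 of 10 against 9.55%. For KO sham against WT sham it was 0 of 10 against 5.91%, and for WT TAC against WT sham 0 of 10 against 4.28%. The median of the 10 factors was 0.05 for KO TAC against KO sham and -0.0061 for KO TAC against WT TAC, beside 0.00026 and 0.03 for all genes. A share of 1 in 10 lay near the background of both KO TAC comparisons. That background was counted for genes only. The share of all probe sets without overlap was not counted, so the single probe sets named above as not overlapping are descriptions.

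When each probe set was a feature of its own and none was filtered out, limma called 0 of the 30 in every comparison. Of all 45037 probe sets, 0.187% were called for KO TAC against KO sham, 0.253% for KO TAC against WT TAC, 0.111% for KO sham against WT sham, 0% for WT TAC against WT sham and 0.00222% for the difference between responses. The smallest adjusted p of a member was that of Hopx 1451776_s_at for KO TAC against KO sham (-0.65 ± 0.13, adjusted p = 0.0709), and 1428662_a_at had 0.0835 there and 0.110 for KO TAC against WT TAC. At an unadjusted p under 0.05 there were 6 of 30 for KO TAC against KO sham, 7 for KO TAC against WT TAC, 0 for KO sham against WT sham, 2 for WT TAC against WT sham and 5 for the difference, beside 8.95%, 10.4%, 5.82%, 6.04% and 7.07% of all probe sets. With the dimmest 40% of probe sets left out, 2 of the 30 were called for KO TAC against KO sham and 1 for KO TAC against WT TAC, where 0.729% and 0.921% of the 27022 probe sets left were called. The 3 dimmest probe sets varied widely among arrays of 1 group. Tbx20 1422219_a_at ran from 13.9 to 141.1 within WT sham, Mef2a 1425426_a_at from 24.1 to 102.5 within WT TAC, and Hand2 1443854_at from 20.4 to 150 within KO sham.

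**Figure D4:**
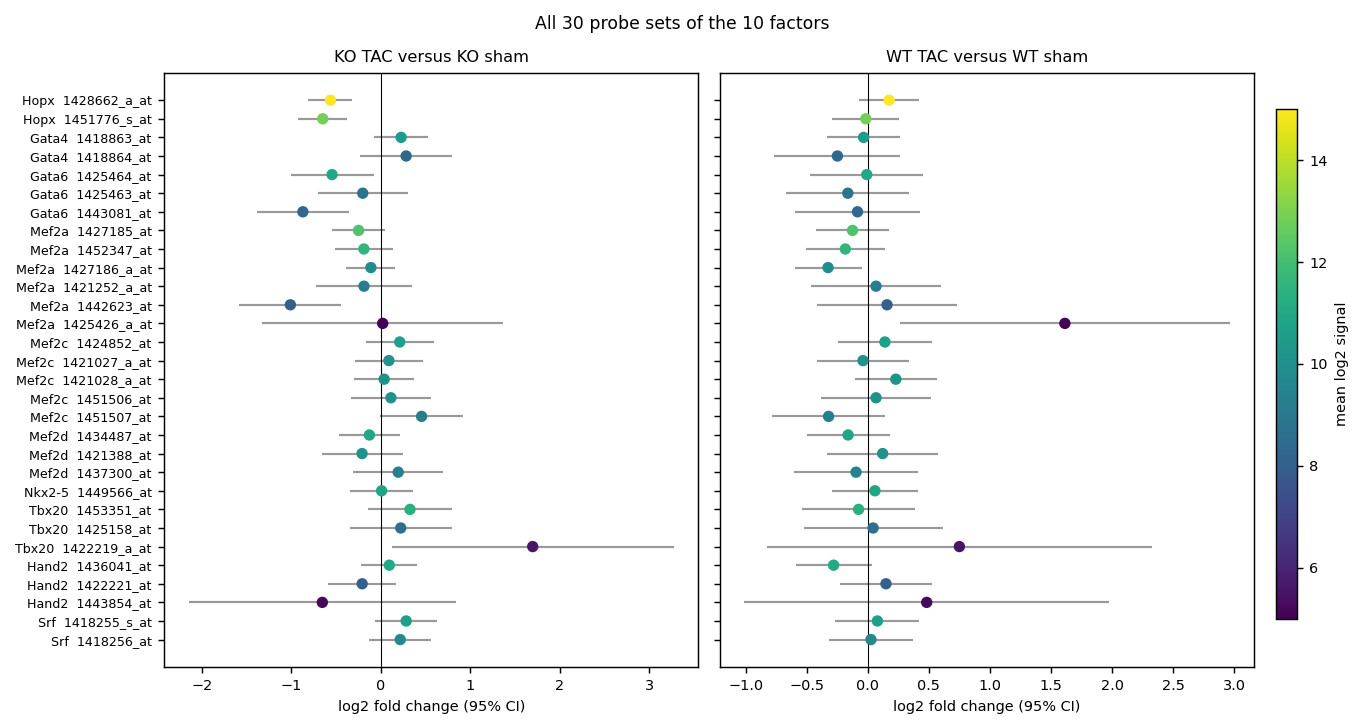
Log2 fold changes (x axes, different ranges) of all 30 probe sets of the 10 factors for KO TAC versus KO sham (left) and WT TAC versus WT sham (right); points are limma estimates coloured by mean log2 signal and bars are 95% confidence intervals. Both Hopx probe sets lie at -0.56 and -0.65 on the left and at 0.17 and -0.02 on the right, and the widest bars belong to the 3 dimmest probe sets.

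Other transcription factors of the heart were counted from a list chosen for this tissue. Of 21 tested, limma called 1 for KO TAC against KO sham and 0 in each other comparison (4 and 0 to 3 at an unadjusted p under 0.05), and the list median was -0.17 beside 0.00026 for all genes in that comparison. The called gene was Foxo3, a forkhead factor that promotes atrophy genes and is held out of the nucleus by insulin signalling. Its signal averaged 1837 ± 706 in KO TAC and 3547 ± 684 in KO sham (SD, n = 4 each), at -1.02 ± 0.23 (adjusted p = 0.0329). Its ranges nearly met, at 987 to 2596 in KO TAC and 2631 to 4244 in KO sham. The call was lost without KO sham replicate 1, 2 or 4 or KO TAC replicate 2 or 3 (adjusted p up to 0.0994) and in 6 of 13 other settings (up to 0.243). Tead1, which binds muscle enhancers with YAP, gave 0.38 ± 0.16 for KO TAC against KO sham (adjusted p = 0.243) and 0.54 ± 0.16 for KO TAC against WT TAC (adjusted p = 0.0917).

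Partners and upstream regulators of the factors did not pass. Of 27 tested cofactors and repressors, limma called 0 in each comparison, with 2 to 5 at an unadjusted p under 0.05, and their median was -0.02 for KO TAC against KO sham. Myocd, the cofactor that directs SRF to muscle genes, averaged 1274 ± 205 in KO TAC, against 1839 ± 470 in KO sham and 1862 ± 510 in WT TAC (SD, n = 4 each). It gave -0.50 ± 0.21 against KO sham (adjusted p = 0.244) and -0.52 ± 0.21 against WT TAC (adjusted p = 0.227). Ankrd1 of the same list leaned higher with TAC. It gave 0.43 ± 0.17 for KO TAC against KO sham (adjusted p = 0.210) and 0.76 ± 0.17 for WT TAC against WT sham (adjusted p = 0.484). Of 13 tested kinases and phosphatases that act on the factors, limma called 0 in each comparison, with 0 to 2 at an unadjusted p under 0.05. The smallest adjusted p in that list was that of Mapk14, the p38 kinase that activates MEF2 (-0.34 ± 0.087 for KO TAC against KO sham, adjusted p = 0.0541). For WT TAC against WT sham Mapk14 gave -0.29 ± 0.087 (adjusted p = 0.580).

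Known targets of the factors in heart muscle were counted in the same way. For KO TAC against KO sham, 4 of 24 tested targets were called higher and 0 lower, although the list median was -0.17 and 7 of 24 were positive. Nppa, the atrial natriuretic peptide gene, averaged 61996 ± 6906 in KO TAC and 26163 ± 2878 in KO sham (1.24 ± 0.16, adjusted p = 0.000659). Acta1, the skeletal actin gene of the SRF programme, averaged 59589.8 ± 10141 in KO TAC and 18065 ± 6488 in KO sham (1.78 ± 0.30, adjusted p = 0.00564), and neither pair of ranges overlapped. In wild-type hearts Nppa averaged 39220 ± 7561 in WT TAC and 19231 ± 3449 in WT sham (1.03 ± 0.16, adjusted p = 0.107), and Acta1 averaged 46693 ± 16894 in WT TAC and 24565.5 ± 7228 in WT sham (0.91 ± 0.30, adjusted p = 0.585). The difference between the TAC responses did not pass for either, at 0.22 ± 0.22 for Nppa (adjusted p = 0.769) and 0.87 ± 0.42 for Acta1 (adjusted p = 0.499). Atrial tissue also makes Nppa, and the atrial marker Myl7 averaged 1159 in KO TAC (160 to 2117), 4009 in KO sham (467 to 12058), 263 in WT TAC (12.5 to 785) and 1480 in WT sham (74.4 to 3427). Sln, another atrial gene, averaged 433 in KO TAC, 1919 in KO sham, 107 in WT TAC and 659 in WT sham, and Myl4 averaged 1429, 3309, 486 and 1512 in the same groups. All 3 had higher means in KO TAC than in WT TAC, as Nppa did, and lower means in KO TAC than in KO sham. Their part in the Nppa values was not tested. Xirp1, a MEF2 target of the intercalated disc, gave 1.00 ± 0.18 (adjusted p = 0.00831). Des, which encodes the muscle intermediate filament desmin, gave 0.48 ± 0.11 (adjusted p = 0.0391), and its call was kept only when the array left out was WT TAC 2, 3 or 4, KO sham 4 or KO TAC 1 (adjusted p up to 0.106 without others). For KO TAC against WT TAC, 2 of 24 were called higher and 0 lower. The list median there was -0.16 and 10 of 24 were positive, with 15 at an unadjusted p under 0.05 (16.4% of all genes). For WT TAC against WT sham 0 of 24 were called, the list median was 0.26 and 20 were positive. The difference between the TAC responses had a list median of -0.22, with 7 of 24 positive. The 2 called against WT TAC were Myh7, the slow myosin gene, at 2.31 ± 0.41 (adjusted p = 0.00853), and Nppa, at 0.67 ± 0.16 (adjusted p = 0.0356). Myh7 averaged 10193 in KO TAC (5303 to 14039), 4508 in KO sham (2407 to 8205), 2022 in WT TAC and 1382 in WT sham. It was also higher, without a call, in KO sham against WT sham (1.59 ± 0.41, adjusted p = 0.138). That Nppa call was lost without WT sham 2, WT TAC 1, 2 or 4 or any 1 of the KO TAC arrays (adjusted p up to 0.103).

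The SRF targets of smooth muscle and early growth were counted apart. Of 13 tested, 1 was called higher for KO TAC against KO sham and 3 for KO TAC against WT TAC, with 0 lower and list medians of 0.16 and 0.15. Fhl1, a LIM protein of stressed muscle, averaged 16114 ± 1648 in KO TAC, 7589 ± 439 in KO sham and 9356 ± 1871 in WT TAC (SD, n = 4 each). It gave 1.08 ± 0.15 against KO sham (adjusted p = 0.00165) and 0.80 ± 0.15 against WT TAC (adjusted p = 0.0111). Over 13 other settings the first call was kept in 12, and lost with probe sets averaged (0.74, adjusted p = 0.397). The second was kept in 9, and lost with probe sets averaged (0.38, adjusted p = 0.688), with only the arrays compared, without the 3 arrays of outlying spike-ins and with the spike-in covariate. Junb and Egr1 are early growth genes. Junb averaged 2497 ± 227 in KO TAC and 1405.5 ± 303 in WT TAC (0.85 ± 0.18, adjusted p = 0.0258), and Egr1 averaged 18346 ± 1787 in KO TAC and 12604 ± 1468 in WT TAC (0.54 ± 0.13, adjusted p = 0.0477). In the sham groups Egr1 averaged 19163 ± 2374 in KO and 15369 ± 2610 in WT (0.33 ± 0.13, adjusted p = 0.487). For KO TAC against KO sham, Egr1 gave -0.06 ± 0.13 (adjusted p = 0.891) and Junb 0.45 ± 0.18 (adjusted p = 0.238). The Junb call was lost without WT TAC 1, 3 or 4 or KO TAC 1, 2 or 3 (adjusted p up to 0.0757), and the Egr1 call was kept only when the array left out was WT sham 3 or 4, WT TAC 2 or KO sham 2 (up to 0.157 without others). Over 13 other settings, Acta1 kept its call in 13, as did Nppa against KO sham, Xirp1 in 10, Des in 8, Myh7 in 11, Nppa against WT TAC in 8, Junb in 8 and Egr1 in 6. The difference between the TAC responses passed for none of the 9 genes named as called (adjusted p from 0.234 to 0.769, and 0.00103 the lowest unadjusted p). No called gene of these lists changed sign in any of those settings or without any single array. Whether the lower Hopx bears on these targets was not tested.

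The genes whose pattern was most like that of Hopx were taken by Pearson correlation of log2 signal over the 16 arrays, among 10915 other tested genes, as a description. They were Crip2, a LIM protein gene (r = 0.946), Hrc, a calcium-binding protein gene of the sarcoplasmic reticulum (0.912), Ndufv1, a complex I subunit gene (0.893), Eno3, the muscle enolase gene (0.892), and Atp5g2, an ATP synthase subunit gene (0.887). With group means removed, the correlations were 0.740, 0.789, 0.594, 0.691 and 0.328. All values share the scaling of each array. Of the 5, Crip2 (-0.36, adjusted p = 0.0349), Ndufv1 (-0.41, adjusted p = 0.0243) and Atp5g2 (-0.36, adjusted p = 0.0385) were called lower for KO TAC against KO sham, and Hrc for KO TAC against WT TAC (-0.38, adjusted p = 0.041). Since the 5 were chosen to follow Hopx on these same arrays, those calls are no separate result.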

How the data were processed

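The deposited values were linear signal intensity per probe set. The submitters' processing notes name GCOS 1.4, and the sources used here give no detection calls or filters. The members and lists were chosen with earlier results of these data known. Intensities under 11.9 (the 10th percentile) were raised to it before log2, without normalizing again. Of 45101 probe sets, 64 were controls, 932 carried several genes and 9160 none. Gene symbols came from the platform annotation, updated by gene ID to GRCm38.p6 for 34754 of the 34945 probe sets with 1 gene. The probe set of highest mean log2 signal stood for a gene, and the 40% dimmest genes were left out. Limma 3.58.1 in R 4.3.3 was fitted with 1 coefficient per group to genes and, without a filter, to 45037 probe sets. The tests were two-sided with Benjamini-Hochberg adjustment, and the fit was tested on simulated data. Outside the members, at most 4 called genes and the 2 others with the smallest p of each list could be named per comparison, besides the 5 genes most like a called member; the text describes a part of them. Protein sequences are not used here. Of the promoters the rule allowed, those of Mef2c and Mef2d are not shown, and that of Srf was added after values were seen.

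No 2 arrays held the same values (the highest correlation was 0.932), and all 16 were counted. Replicate numbers do not mark shared animals in the labels, and no block entered the main fit. Of 24 same-numbered pairs, 5 correlated above 0.1, which does not decide whether a number marks anything shared. Alternatives were quantile normalization, centring arrays on their medians, a floor of 38.4 (the 25th percentile), other filters, averaged probe sets, no _x_at or _s_at probe sets, limma with trend and robust, only the arrays compared, the replicate block, the spike-in signal as a covariate, leaving out 3 arrays of extreme spike-in signal (KO TAC 2 and 3 and WT TAC 3) and each array in turn.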

Additional observations from a re-analysis of the deposited data

Results flagged for a closer look

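In the gene fit, the Hopx response to TAC in KO minus that in WT was -0.736 on the log2 scale. By the brightest probe set as deposited, every KO TAC array lay below the KO sham mean and every WT TAC array above the WT sham mean. The WT TAC part did not hold under the other scalings. WT TAC 2 lay below the WT sham mean after quantile normalization (-0.02) and relative to bright genes (-0.0096). WT TAC 1 and 3 did after centring on array medians (-0.04 and -0.12). The second probe set, 1451776_s_at, gave -0.02 ± 0.13 for WT TAC against WT sham. Limma's test of this difference did not pass over all genes (adjusted p = 0.125). The lean was not particular to Hopx. For the same difference the 10 cardiomyocyte markers had a median of -0.50, with 0 positive and 0 called. Of them, 7 had an unadjusted p under 0.05, against 10.3% of all genes. The 277 bright genes had a median of -0.28, with 22 positive. The part of either set in the Hopx difference was not tested.

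Among 120 sets of 4 arrays, 30 probe sets in 4 groups, 9 held 1 array far from the other 3, where chance gives about 1 in 20, or 6. On Hopx 1428662_a_at, KO TAC 4 had 27553.5 and the others 25393.9 to 25649.6, and it still lay below the arrays of the other groups. On Gata4 1418864_at, KO TAC 1 had 325.3 and the others 459.7 to 488, while WT TAC 2 had 168.4 and the others 285.3 to 304.5. On Mef2a 1442623_at, KO TAC 1 had 237.5 and the others 133.1 to 135.6. On Mef2a 1425426_a_at, WT TAC 1 had 24.1 and the others 84.7 to 102.5. On Mef2a 1452347_at, WT TAC 3 had 2464.9 and the others 3091.2 to 3238.1. On Mef2c 1451507_at, KO sham 3 had 735.2 and the others 526.2 to 533.1. On Mef2d 1437300_at, KO sham 4 had 842.2 and the others 535.4 to 556.3. On Nkx2-5 1449566_at, WT TAC 2 had 1504.9 and the others 2019.5 to 2093.8.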

How the results depend on the processing

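The number of factors called for KO TAC against WT TAC, 1 as reported, was 0 with quantile normalization, with arrays centred on their medians, with only the arrays compared, without the 3 arrays of outlying spike-ins, with spike-ins as a covariate and relative to bright genes. It was 1 to 2 with 1 array left out, and 2 without KO TAC replicate 4, when Gata6 was also called. For KO TAC against KO sham it was 0 with arrays centred on their medians and without the 3 arrays. For the difference between responses, trend and robust called 1, Hopx. Of the 30 probe sets, 0 as reported, KO TAC against WT TAC gave 1 with a floor at the 25th percentile, 1 and 2 with the dimmest 40% and 60% left out and 2 with trend and robust. KO TAC against KO sham gave 2, 2, 4 and 2 in the same settings and 0 to 1 with 1 array left out, the 1 without WT TAC replicate 3. For the difference, trend and robust called 1 probe set. The calls among all probe sets changed too. For KO TAC against KO sham they were 84 as reported and 27 to 427 over the settings. For KO TAC against WT TAC they were 114 and 33 to 520. With the dimmest 40% left out, 0.729% and 0.921% of the 27022 probe sets left were called. The member counts are therefore not read as a result about the factors. Apart from changes of filter or of arrays, the cause of these changes was not tested.

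The Hopx values were -0.61 to -0.41 for KO TAC against KO sham and -0.50 to -0.31 for KO TAC against WT TAC over 13 settings, and -0.61 to -0.54 and -0.55 to -0.46 with 1 array left out. With the replicate number as a block, Hopx kept both calls (adjusted p = 0.00565 and 0.00951) and the same count of 1 factor was called in each KO TAC comparison. Of the other calls named, those of Junb, Egr1 and Nppa for KO TAC against WT TAC were lost with the block. Correlations of same-numbered arrays ran from -0.19 to 0.14, and 7 of 16 arrays matched their own number best. With no such range given for arrays of different numbers, these values do not decide whether a number marks anything shared.

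With centring, the median of all genes was -0.12 for WT TAC against WT sham, 0.13 for KO TAC against KO sham, 0.22 for KO TAC against WT TAC and 0.25 for the difference. Over all genes, 280 were called for KO TAC against KO sham (55 to 426 over settings, 111 to 318 with 1 array left out), 268 for KO TAC against WT TAC (63 to 554, 134 to 259) and 81 for KO sham against WT sham (35 to 103, 55 to 87). For WT TAC against WT sham it was 0 (0 to 1, 0 to 2), and for the difference 0 (0 to 13, 0 to 1). With 4 arrays per group, the dimmest probe sets had the widest intervals.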
